A study of Homo sapiens with 6 samples.

Results

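The regions described here are the 300 open regions with the highest peak scores in the series, out of 69562 regions in all. They were chosen by the score itself. Peaks of each library were ranked by the −log10 q-value of the authors' peak caller and turned into percentiles, and peaks of different libraries that overlapped by 1 bp or more were merged. For each region held by all 6 libraries on chromosomes 1 to 22, X and Y, of which there were 23511, the best percentile of each library was averaged, and the 300 regions with the highest averages were kept. The score that chose them, and the fold enrichment and pileup (the number of fragments stacked over the highest point of a peak, the summit) from which it was made, are therefore given below as descriptions.

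The series used ATAC-seq, in which a transposase cuts and tags accessible DNA, on nuclei of the Jurkat line, which was derived from a human T-cell leukaemia. Of the 2 groups compared, one was simulated microgravity (SMG 1 to SMG 3), in which isolated nuclei rather than intact cells were turned in a random positioning machine at 30 degrees per second for 30 min at 37 °C, and the other was normal gravity (NG 1 to NG 3), with no rotation in its treatment label. The protocol text is the same for both groups and does not say whether rotation and transposition ran at the same time. Both groups shared the cell line, the lysis of 50000 cells for 3 min and the 30 min transposition at 37 °C. Nothing in the labels ties the 3 replicates of a condition to independent cultures, and the p-values below therefore speak only of how these libraries scatter, technical scatter included. Peak names of SMG 3 carry the word normalized, unlike those of the other 5 libraries, with no account of its meaning.

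Tall ATAC-seq peaks are known from different kinds of place. One is the start of an active gene, where the nucleosomes are displaced and DNA-binding factors such as Sp1 and NF-Y sit just upstream of the start; NF-Y is a trimer that binds the CCAAT box. The other is repeated or recently copied sequence, such as satellites near centromeres, macrosatellite arrays and nuclear copies of mitochondrial DNA, where reads from many copies can be placed on the few copies that the assembly holds. In that case a tall peak need not mean that any 1 copy is open. Among the 300 regions were gene starts, and others lay at or near copied genes, pseudogenes of mitochondrial genes or gene-free stretches. Outside the promoter windows no sequence was read, so these were judged by position and gene name. Mapping of reads to copies was not examined.

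Promoter sequences (RefSeq, GRCh38.p14) are shown for 8 of the genes that start inside these regions. Each is the 250 bases before the annotated start nearest the summit, 5′ to 3′ on the gene's own strand, and the capitals mark the CCAAT box letters on either strand (CCAAT or ATTGG). G3BP1, an RNA-binding protein of stress granules, and MSMO1, an enzyme of sterol synthesis, are 2 of the 6 highest-ranked starts of protein-coding genes, and PNPLA8, a phospholipase, is the highest-ranked one and holds no such letters. OSBP, a sterol transfer protein, and ZBTB3, a zinc finger protein, hold 5 each, as many as any promoter in the set, and ZDHHC5, a palmitoyltransferase, is the member with the largest difference between the groups. SRGAP2, a regulator of Rac signalling, and its human-specific copy SRGAP2C are shown because their regions are near-identical copies.
G3BP1: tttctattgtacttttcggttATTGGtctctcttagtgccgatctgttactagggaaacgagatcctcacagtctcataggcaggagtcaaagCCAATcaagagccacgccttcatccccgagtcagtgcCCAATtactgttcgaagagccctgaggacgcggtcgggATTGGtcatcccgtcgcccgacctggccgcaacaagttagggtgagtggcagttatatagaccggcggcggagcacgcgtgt
MSMO1: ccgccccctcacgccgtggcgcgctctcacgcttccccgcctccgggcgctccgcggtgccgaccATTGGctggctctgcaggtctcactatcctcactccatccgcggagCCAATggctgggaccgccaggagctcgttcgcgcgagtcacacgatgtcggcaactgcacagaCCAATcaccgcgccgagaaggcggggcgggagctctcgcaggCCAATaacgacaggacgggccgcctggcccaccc
PNPLA8: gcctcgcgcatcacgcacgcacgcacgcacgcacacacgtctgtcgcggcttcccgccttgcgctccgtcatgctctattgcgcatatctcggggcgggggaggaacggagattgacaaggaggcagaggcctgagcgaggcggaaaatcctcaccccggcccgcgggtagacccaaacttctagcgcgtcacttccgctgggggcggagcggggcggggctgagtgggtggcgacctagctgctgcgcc
OSBP: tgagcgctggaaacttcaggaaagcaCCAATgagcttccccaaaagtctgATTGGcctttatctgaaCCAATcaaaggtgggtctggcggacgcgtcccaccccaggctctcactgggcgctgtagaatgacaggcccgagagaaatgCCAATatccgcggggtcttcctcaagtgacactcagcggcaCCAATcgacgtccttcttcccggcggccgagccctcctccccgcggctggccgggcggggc
ZBTB3: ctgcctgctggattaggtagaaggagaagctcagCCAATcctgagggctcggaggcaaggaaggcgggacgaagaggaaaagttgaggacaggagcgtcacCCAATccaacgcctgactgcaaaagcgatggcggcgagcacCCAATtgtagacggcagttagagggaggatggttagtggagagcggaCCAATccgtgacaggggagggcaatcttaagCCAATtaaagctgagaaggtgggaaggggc
ZDHHC5: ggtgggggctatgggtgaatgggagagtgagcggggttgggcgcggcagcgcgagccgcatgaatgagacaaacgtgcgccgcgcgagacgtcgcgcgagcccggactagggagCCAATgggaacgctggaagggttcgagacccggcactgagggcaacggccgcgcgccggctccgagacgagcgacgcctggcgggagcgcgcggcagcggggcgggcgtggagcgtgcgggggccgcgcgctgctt
SRGAP2: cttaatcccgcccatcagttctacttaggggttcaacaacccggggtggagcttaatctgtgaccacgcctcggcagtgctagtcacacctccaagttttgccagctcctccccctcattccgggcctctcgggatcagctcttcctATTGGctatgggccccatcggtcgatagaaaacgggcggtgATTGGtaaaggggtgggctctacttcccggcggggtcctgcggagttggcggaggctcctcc
SRGAP2C: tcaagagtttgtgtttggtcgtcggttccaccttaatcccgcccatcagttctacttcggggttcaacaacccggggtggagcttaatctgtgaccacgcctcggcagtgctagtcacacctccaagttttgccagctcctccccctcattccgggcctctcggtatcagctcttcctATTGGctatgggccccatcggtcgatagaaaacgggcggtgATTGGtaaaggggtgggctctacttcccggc

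These stretches lie at chr5:151771704-151771953, plus strand; chr4:165327419-165327668, plus strand; chr7:108526136-108526385, minus strand; and chr11:59615775-59616024, minus strand. The others lie at chr11:62754161-62754410, minus strand; chr11:57667864-57668113, plus strand; chr1:206203291-206203540, plus strand; and chr1:121184725-121184974, plus strand. G3BP1 holds 2 forward and 2 reverse CCAAT boxes between 229 and 82 bp before its start. MSMO1 holds 3 forward and 1 reverse between 185 and 34 bp before its start. OSBP holds 4 forward and 1 reverse, ZBTB3 holds 5 forward ones, and ZDHHC5 holds 1, at 136 bp before its start.

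The highest of all was chr3:93470255-93470913, which lies inside the longest stretch of chromosome 3 without an annotated gene. Its summit pileup was 2362, 2561 and 2826 fragments in SMG 1, SMG 2 and SMG 3, and 3682, 2910 and 2167 fragments in NG 1, NG 2 and NG 3. The groups overlapped, and the highest and the lowest value were both in NG. Its local background was itself a pileup of 93.2 to 122 fragments, where the middle of the 300 regions had 9.70. The second, chr13:18211643-18212638, lay 4787 bp from EIF3FP2, a pseudogene of a translation factor subunit, and the seventh, chr21:10325533-10326059, lay 4791 bp from its relative EIF3FP1. The third, chr22:18730252-18730838, and the sixteenth, chr22:18896143-18896725, lay 3296 and 432 bp from FAM230E and FAM230F, members of a copied family of noncoding genes.

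Among the 12 highest regions, 3 lay at nuclear pseudogenes of mitochondrial genes, 4 by a chromosome's longest gene-free stretch, 3 between genes, 1 at ROCK1P1, a pseudogene, and 1 within DUX4, a gene of a subtelomeric macrosatellite repeat. None lay at the start of a protein-coding gene. The region within DUX4, chr4:190177991-190180087, had a pileup of 599, 671 and 489 fragments in SMG and 605, 676 and 546 in NG. The mitochondrial-like region chr17:22521235-22521690, beside MTCYBP13, a copy of the mitochondrial cytochrome b gene, had 706, 816 and 350 fragments in SMG and 761, 783 and 714 in NG. SMG 3 stood apart there, below the other 5 libraries. On the mitochondrial chromosome itself, which the rule leaves out, the highest pileup was 8507, 9564 and 8078 fragments in SMG and 8467, 8390 and 7507 in NG.

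**Figure D1:**
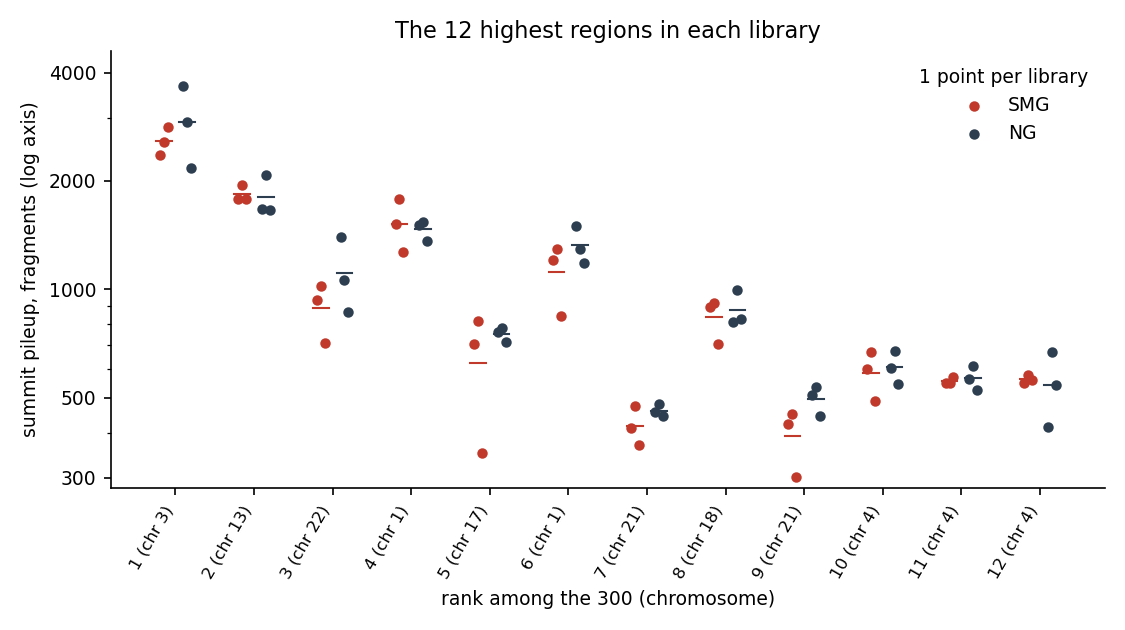
Summit pileup in fragments (log axis) of the 12 highest regions, 1 point per library with SMG left of NG, and bars at the group means. The highest region reaches 2167 to 3682 fragments, and at rank 5 SMG 3 lies apart at 350 fragments.

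Over all 300 regions the mean fold enrichment (summit over local background, from the deposited lists) had a median of 12.9, against 6.97 over all 23511 regions. The median pileup was 135 fragments, against 28.7, and the median width 1157.5 bp, against 868 bp. These 3 values are tied to the rule. The regions spread widely within the set: mean fold ran from 3.58 to 32.3 and mean pileup from 91.2 to 2751 fragments. A mean fold of 20 or more was reached by 11 regions, of which 7 lay between genes, 3 by a gene-free stretch and 1 at a mitochondrial copy, and none at a protein-coding start. A mean pileup of 300 or more fragments was reached by 21 regions, of which 11 lay by a gene-free stretch, and again none at a protein-coding start. The lowest averages inside the limit were at percentiles of 98.963 (within PITPNM2), 98.9515 (at HSPD1, the mitochondrial chaperonin) and 98.9511 (at PHF14). Just outside came 98.9445 (at RTN4), 98.9385 and 98.9363 (at ZNF451).

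**Figure D2:**
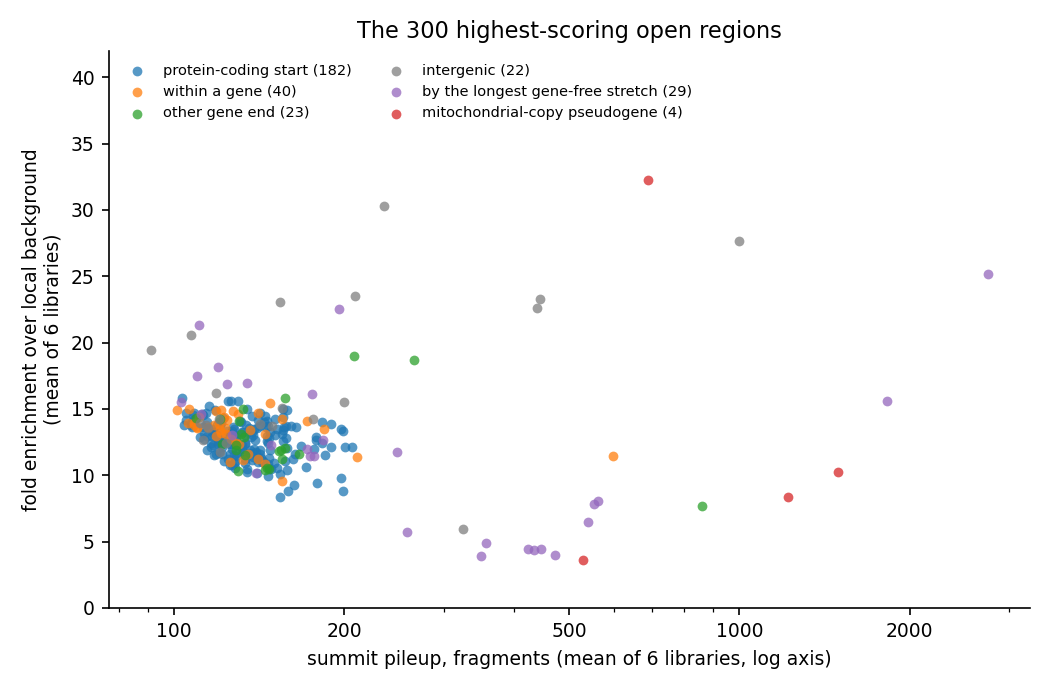
Mean fold enrichment over local background against mean summit pileup in fragments (log axis) for each of the 300 regions, coloured by location class with the number of regions in brackets. The 182 regions at protein-coding starts form 1 group at or below 206.5 fragments and between 8.33 and 15.8-fold, and some regions of the other classes extend far beyond it on both axes.

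Location was not used by the rule. A region was placed by its middle summit, in a fixed order of classes. At the start of a protein-coding gene, within 1 kb, lay 182 of the 300 regions (60.7%), against 34.6% of all 23511. The 95% exact binomial interval of 54.9 to 66.2% covers counting error only and takes regions as independent, which copied regions are not. For genes without an annotated start, either end counted as a start. A start of known strand lay within 1 kb in 153 of the 182, and in 6934 of the 8132 such regions among all. Within a gene lay 40 (13.3%, against 36.7%), between genes 22 (7.33%, against 18.4%), and at an end of another kind of gene 23 (7.67%, against 6.32%). By the longest gene-free stretch of a chromosome, with 2 Mb taken on each side, lay 29 (9.67%, against 3.97%). The stretch was a rough stand-in for the region around the centromere, whose position was not available, and it may lie elsewhere. On chromosome Y it was 26634656-56855242 and gave 7 of the 29. On chromosome 21 it was 498025-5010453, so chr21:10325533-10326059 and chr21:10269798-10270625 counted as between genes. The class is therefore not a split of centromeric from other regions. At copies of mitochondrial genes lay 4 (1.33%, against 0.0298%). Those 4 were 4 of only 7 such regions in the whole set of 23511.

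The share at protein-coding starts grew down the ranking, with 0 of the first 12 regions and 6 of the first 30. Of the first 150 regions 53.3% lay at such a start, and of the first 600 65.7%. Chromosome 4 held 36 of the 300 regions (12%, against 4.94% of all), chromosome 3 held 30 (10%, against 6.59%) and chromosome 7 held 26 (8.67%, against 5.13%). Chromosomes 15 and 20 held none, with 735 and 560 regions held by all libraries, and chromosome X held 1 of its 688.

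Of the 29 regions by a gene-free stretch, 22 lay inside the stretch and 7 on its flanks, and 4 of them were also within 1 kb of a protein-coding start. Chromosomes Y and 1 held 7 each. On chromosome Y, 6 regions lay within 80.6 kb of each other, at chrY:56689566-56770179, with low contrast. Their mean folds were 3.93 to 4.87, with mean pileups of 349 to 471 fragments over local backgrounds of 72.4 to 119. The seventh, chrY:57216779-57217359, had the same width (581 bp) as the region chrX:156030259-156030839. Their nearest protein-coding start was IL9R, at 32946 and 32945 bp, in the part of the sex chromosomes where X and Y carry the same sequence. The X copy had a fold of 21.6, 20.04 and 29.5 in SMG and 26.8, 21.6 and 21.6 in NG, and the Y copy 19.3, 21.9 and 25.9 in SMG and 26.8, 21.2 and 20.02 in NG. SMG 3 and NG 1 were the highest libraries at both. Reads from identical copies cannot be assigned to 1 of them, so the values of such regions are uncertain and not independent.

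Recently copied genes recurred. On chromosome 1, 4 regions lay where a member of the FAM72 family and a member of the SRGAP2 family start close together, at ranks 28, 38, 56 and 62. Those at ranks 38, 56 and 62 lay within 2 Mb of the longest gene-free stretch of chromosome 1. They were therefore counted in that class above and not at protein-coding starts. At SRGAP2 itself the fold was 11.8, 12.9 and 9.89 in SMG and 12.1, 12.6 and 13.5 in NG. At SRGAP2C it was 13.6, 12.6 and 10.8 in SMG and 14.04, 12.5 and 12.5 in NG. SMG 3 had the lowest fold at all 4. Over the 260 bases on which the promoter windows of SRGAP2 and SRGAP2C align, 258 were identical, and FAM72C and FAM72D matched in all of 271 aligned bases. FAM86 copies, of a methyltransferase family, lay within 5 kb of 6 regions on chromosomes 3, 4, 8 and 12. RNU1-2, RNU1-3 and RNU1-4, genes of the U1 small nuclear RNA that recognises 5′ splice sites, lay 185, 287 and 12 bp from 3 regions. Their folds ran from 10.9 to 13.0 in SMG and from 11.2 to 12.4 in NG. These 3 were 3 of 47 small nuclear RNA, 7SK and 7SL genes in the annotation.

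The 6 highest regions at protein-coding starts were those of PNPLA8, ENY2, a subunit of the SAGA coactivator, RBIS, a ribosome assembly factor, G3BP1, MSMO1 and SRGAP2. PNPLA8 had a fold of 13.7, 12.8 and 12.3 in SMG and 13.9, 13.8 and 13.7 in NG. G3BP1 had 11.8, 12.8 and 10.7 in SMG and 12.2, 12.7 and 12.6 in NG. MSMO1 had 15.2, 14.04 and 12 in SMG and 13.3, 14.6 and 14.1 in NG. SMG 3 was the lowest library at each of these 3 starts, and at G3BP1 and MSMO1 the groups overlapped, while at PNPLA8 they were apart by less than the spread within SMG.

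Where the promoter table gave the strand (153 of the 182 regions at a start), the summit lay a median of 132 bp from the nearest protein-coding start, against 82 bp over 6934 such regions in all. It lay upstream of that start in 137 of 153 (89.5%), against 79.5%. Starts on both strands, of any kind of gene, lay within 1 kb of the summit in 70 (45.8%), against 29.0%, and protein-coding starts on both strands in 40 (26.1%), against 12.2%. Pairs of this kind included the starts of PPAT and PAICS, which encode enzymes of purine synthesis, and of HSPD1 and HSPE1, the chaperonin and its cochaperonin. These pairs were named after their values were seen.

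**Figure D3:**
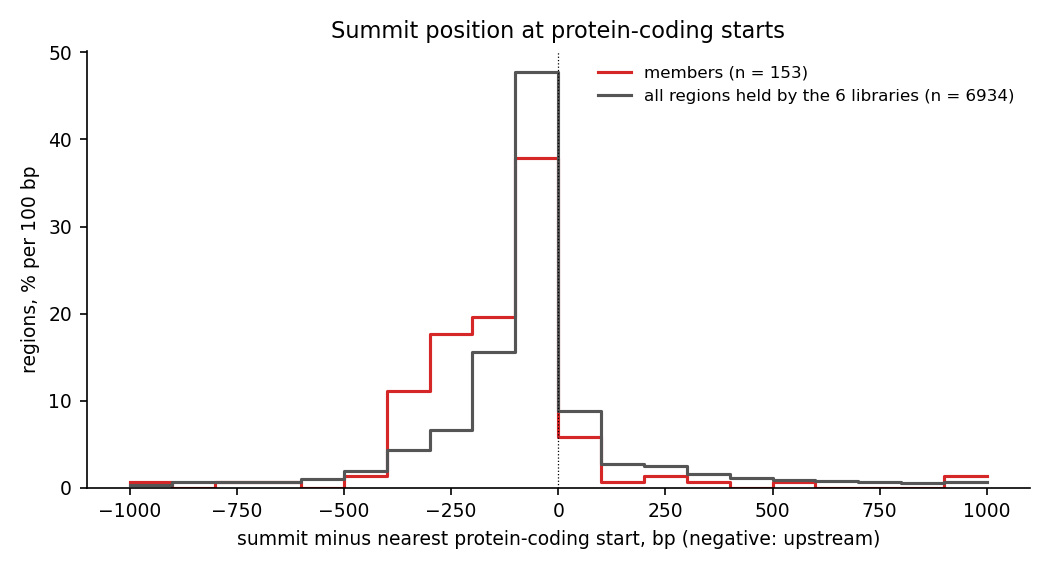
Distance of the summit from the nearest protein-coding start in bp (negative is upstream) for 153 of the 300 regions and for 6934 of all regions held by the 6 libraries, as a percentage of regions per 100 bp. Members lie farther upstream, with a median distance of 132 bp against 82 bp.

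Of the 9 motifs searched, the CCAAT box had the share that differed most, in percentage points, from that of all regions. Of 254 promoter windows (250 bases before to 50 after a protein-coding start) at 157 of the 300 regions, 169 held CCAAT or ATTGG (66.5%). Of 9688 windows at all regions held by the 6 libraries, 38.9% did, and of all 22199 protein-coding windows 34.7%. A window held 1.46 such letters on average, against 0.637, and 114 windows (44.9%) held 2 or more, against 15.7%. Taking 1 window per region, that of the start nearest the summit, gave 71.3%, against 40.6%.

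The share with a CCAAT box followed the rank of the region over the whole set. It was 57.8% for ranks 301 to 600, 54.7% for 601 to 1200, 46.5% for 1201 to 2400, 43.6% for 2401 to 4800, 35.6% for 4801 to 9600 and 31.2% beyond. G+C content was highest in the lowest ranks, but it did not rise at every step. The median of the windows was 63% at the 300 regions, 64.3% for ranks 301 to 600 and 63% for 601 to 1200. It was 64% for 1201 to 2400, 64.7% for 2401 to 4800, 65.3% for 4801 to 9600 and 67% beyond. In windows of 55 to below 60% G+C the share with a CCAAT box was 74.1% at the 300 regions, against 49.5% at all regions. In windows of 70% or more it was 47.1% (16 of 34), against 29.8%. The part of G+C content in the trend over ranks was not tested. Within windows of 60 to below 65% G+C, 59 of 83 at the 300 regions held the letters (71.1%), against 42.7% of 2037 at all regions. The CCAAT boxes lay at a median of 114 bp before the start, against 97 bp.

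The other motifs differed by fewer percentage points, although the share with NRF1 letters differed more as a ratio. Every motif was searched on both strands. GGGCGG, bound by Sp1 and KLF proteins, was in 80.7% of the windows, against 71.9%. CCGGAAGT (ETS factors) was in 7.87%, against 10.2%, GCATGCGC (NRF1) in 2.76%, against 6.34%, and AAGATGGCG (YY1) in 2.76%, against 4.6%. TGACGTCA (CRE) was in 4.33%, against 3.53%, ACTACAA (part of the ZNF143 motif) in 3.94%, against 4.06%, CACGTG (E-box) in 13.0%, against 10.5%, and TGANTCA (AP-1) in 3.15%, against 3.66%. A match is a run of letters and not a measured binding event, and many windows overlap because genes have several starts. No windows on chromosome 8 were searched.

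**Figure D4:**
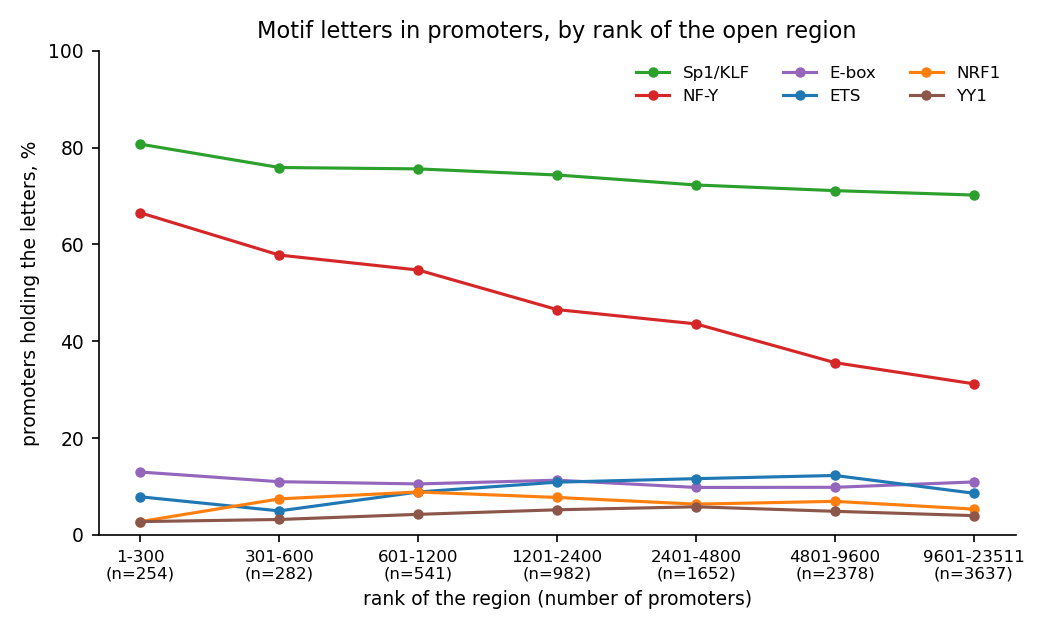
Percentage of protein-coding promoter windows that hold the letters of 6 factors, by rank of the region at which the gene starts, with the number of windows below each bin. The NF-Y line falls from 66.5% in the first 300 regions to 31.2% in the last bin, and the Sp1/KLF line from 80.7% to 70.2%.

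Away from starts, 34 of the 40 regions within a gene had a protein-coding host, and the median distance to a protein-coding start was 38.7 kb. High-ranked ones after DUX4 were within SYNJ2, a phosphoinositide phosphatase, ANK2, an ankyrin, NEIL3, a DNA glycosylase, and OSBPL3, a lipid transfer protein. LCP2, an adaptor of the T-cell receptor pathway, and GFI1, a transcriptional repressor that acts in lymphoid development, also hosted regions, 19.0 and 7.47 kb from the nearest start, and were named after their values were seen. The 22 regions between genes lay a median of 83.6 kb from a protein-coding start. The narrowest of the 300 was one of them, chr13:109424028-109424437, 410 bp wide and 362 kb from IRS2. Its fold was 31.1, 33.1 and 23.1 in SMG and 33.3, 31.0 and 30.2 in NG, with SMG 3 the lowest.

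Of all 20037 protein-coding genes, 246 (1.23%) had a start, counted as above, within 1 kb of the summit of 1 of the 300 regions. For regions held by all 6 libraries the share was 45.6%. None of 26 genes of T cell identity was among the 246, although 17 of them were at a region held by all 6 libraries, and 0 of 14 T-cell leukaemia regulators and 0 of 30 immediate early genes were. At a share of 1.23%, a list of 26 or 30 genes would hold less than 1 such gene. Of the markers of B, myeloid, NK, erythroid and epithelial cells, 0 of 25 were at a region held by all libraries. Cytosolic ribosomal proteins had 2 of 88 (RPL39L and RPS3A), splicing factors 3 of 94 (HNRNPD and HNRNPL among them), translation factors 2 of 88 (EIF2A and LARS1), and the proteasome and chaperones 4 of 127 (HSPD1, HSPE1, DNAJB9 and DNAJC27). Zinc finger genes had 5 of 509. Mitochondrial ribosomal proteins had 0 of 77 and replication-dependent histones 0 of 69, where the overall share would likewise give less than 1 gene. Of these lists 85.7% and 73.9% were at a region held by all libraries.

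Between simulated microgravity and normal gravity the 300 regions gave no called difference. Ranks were taken again among the 23511 regions held by all 6 libraries, turned into normal scores within each library and compared with limma over all of them. None of the 300 regions passed an adjusted p (Benjamini-Hochberg) of 0.05, as none of the 23511 did (0%), and the smallest adjusted p was 0.613. At an unadjusted p under 0.05 in limma there were 18 of the 300 (6%) and 1345 of all (5.72%). The median difference, SMG minus NG, was −0.0116 for the 300 regions and −0.00208 for all, in units of the normal score. On simulated data built from these regions, the test called 0 of 200 shifts of 1, 56.5% of shifts of 2 and 91% of shifts of 3, for 200 regions drawn from all 23511. The 300 regions were not simulated apart, so these shares do not show how often the test would call such shifts among them. The differences among the 300 regions ran from −0.74 to 0.51.

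All 3 SMG values lay above all 3 NG values in 15 of the 300 regions (5%), where 5.36% of all 23511 regions did so. All 3 lay below in 17 (5.67%), against 5.75% of all. On the normal score both shares are near those of all regions. This split depended on the scale. With the deposited fold it was 3 higher (1%, against 4.11% of all regions) and 36 lower (12%, against 5.82%). With pileup over the genome-wide background of its library it was 2 higher (0.667%, against 3.72%) and 51 lower (17%, against 7.16%). On these 2 scales the shares are therefore not near those of all regions. The second scale was lower in SMG for 244 of the 300 regions (81.3%), against 56.6% of all, with a median log2 difference of −0.11, against −0.04. By library, the median of that scale over the 300 regions was 82.3, 90.6 and 79.7 in SMG and 87.1, 90.3 and 97.3 in NG, so the groups overlapped.

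By class, 9 of the 15 higher regions were within a gene (9 of 40, 22.5%, against 6.13% of all regions within a gene) and 15 of the 17 lower ones at a protein-coding start (15 of 182, 8.24%, against 8.05% of all such starts). With the deposited fold, 2 of the 40 within a gene were higher and 2 lower, and 27 of the 182 at a start were lower and none higher. On this scale the matching shares over all regions of each class were not computed. The fold counts therefore do not show whether these regions differ from other regions of their class. Whether the classes differ was not tested.

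Among regions whose groups did not overlap in the normal score, the 5 largest negative differences were at protein-coding starts. ZDHHC5 had a height (pileup over the genome-wide background) of 67.2, 73.0 and 85.4 in SMG and 106, 107 and 123 in NG. The groups did not overlap, at 75.2 ± 9.28 in SMG and 112 ± 9.29 in NG (SD, 3 libraries each). Its normal score differed by −0.74 (95% interval −1.09 to −0.40, limma adjusted p 0.613). Without SMG 3, which was the highest of the 3 SMG libraries, the difference was −0.94 and the adjusted p in limma 0.00577, 1 of 2 regions called in that fit. The other is not one of the 300.

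ELL, an elongation factor of RNA polymerase II, had heights of 75.4, 80.5 and 58.4 in SMG and 99.1, 99.9 and 106 in NG. PABPN1, the nuclear poly(A)-binding protein, had 79.1, 74.7 and 71.6 in SMG and 108, 89.8 and 107 in NG. ZBTB3 had 71.6, 71.8 and 74.7 in SMG and 90.5, 103 and 95.1 in NG. In all 3 the highest SMG library lay below the lowest NG library, and the normal score differed by −0.61, −0.52 and −0.46. DNM2, the dynamin of endocytosis, differed by −0.44, with 66.9 ± 5.19 in SMG and 88.9 ± 10.3 in NG (SD, 3 libraries each). None passed the adjusted threshold, with adjusted p in limma from 0.659 to 0.795.

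Of the 5 largest positive ones, 4 were within genes. GPD1L, an enzyme related to glycerol-3-phosphate dehydrogenase, hosted a region with heights of 76.0, 73.5 and 78.5 in SMG and 61.5, 64.9 and 70.5 in NG. BIRC2, an inhibitor of apoptosis and ubiquitin ligase, hosted one with 86.1, 80.5 and 89.8 in SMG and 68.3, 73.4 and 78.9 in NG. Neither pair of groups overlapped, and the normal scores differed by 0.51 and 0.46 (limma adjusted p 0.791 each). Regions within CEP97, a centriole protein, and SAMD12 and at the noncoding gene LOC124908062, near NABP1, differed by 0.38, 0.38 and 0.36 in the normal score, with adjusted p in limma from 0.824 to 0.851, and at CEP97, LOC124908062 and SAMD12 the heights themselves overlapped.

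**Figure D5:**
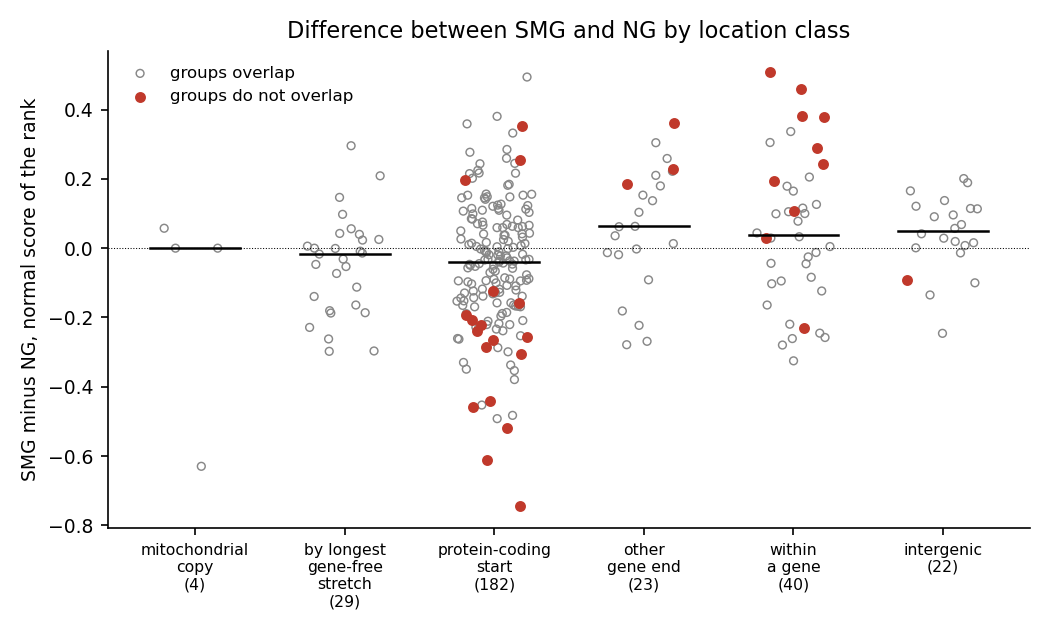
Difference between SMG and NG in the normal score of the rank for each of the 300 regions, by location class with the number of regions in brackets; filled points are regions whose groups do not overlap and bars are class medians. Of the 32 filled points, 15 are higher and 17 lower in SMG, and the extremes are ZDHHC5 at −0.74 and GPD1L at 0.51.

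Regions ranked highest in 1 group mostly ranked high in the other, with 300 of the 23511 regions taken each time. This pool needed a peak in all 6 libraries, so neither choice was independent of the other group. The 300 regions of this pool ranked highest in the NG libraries included 230 (76.7%) of the 300 highest in the SMG libraries. In SMG the lowest of those chosen, near NID1, was at a mean percentile of 96.2. Ranked in the SMG libraries, 230 were among the 300 highest of NG, with the lowest, near TNFAIP8, at 95.8. By single library, 237, 241 and 201 of the 300 were in the library's own 300 highest of this pool in SMG 1, SMG 2 and SMG 3. In NG 1, NG 2 and NG 3 the counts were 221, 241 and 236. In all 6 libraries 122 of the 300 were. The averages over these same 6 libraries chose the 300, so the single-library counts are descriptions only.

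SMG 3 gave the lowest of the 6 percentiles in 105 of the 300 regions (35%) and NG 1 in 70 (23.3%). NG 1 had the shortest peak list, 37782 peaks, and the lowest genome-wide background, a pileup of 1.17, where the other 5 libraries had 39624 to 43713 peaks and 1.42 to 1.77. The widest spread of percentiles was at chr1:631789-632380, the mitochondrial-like region at rank 275, with 99.8, 99.9 and 94.8 in SMG and 99.9, 99.8 and 99.9 in NG. At TRMT10A, a tRNA methyltransferase, the low library was NG 1, at 97.3, where the other 5 were at 98.9 to 99.8. At PJA2, a ubiquitin ligase, it was SMG 3, at 97.5, where the others were at 99.2 to 99.8.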

How the data were processed

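The authors deposited 1 peak list per library in narrowPeak form. The submitters' processing notes name MACS2, BWA, Bowtie, FastQC and SAMtools, without versions, and build hg38. How duplicates, multiply mapped reads and the offset of transposase cuts were handled is not given in the sources used. In the deposited lists the fold enrichment is a linear ratio of summit to local background, and the −log10 p-value and −log10 q-value are those of the authors' peak caller. The integer score in the deposited lists equals 10 times the −log10 q-value and was not used further. Peaks were called per library, and peak names in the list of SMG 3 carry a word on normalization that the other lists lack. Lists without read counts give no depth, so the pileup and local background at each summit were solved from the deposited fold and −log10 p-value with the MACS2 formulas, within 0.001 for over 99.9% of peaks (at least 99.9815% in each library). The lowest background in a list served as its genome-wide background. Mapping of repeats moves pileup and score together.

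The 300 regions, the gene lists, the motifs and the rule for named regions were chosen with earlier results of these data known. That rule took the 12 highest regions, the 6 highest of each class, 3 on each side of the limit, the 5 widest ranges, the 5 largest non-overlapping differences in each direction, the 3 widest and 3 narrowest, and regions at listed genes. Gene positions came from RefSeq (GRCh38.p14), with strand and starts for 15843 of 20037 protein-coding genes. For the others either end counted as a start. Classes were taken in this order: mitochondrial copy, gene-free stretch, protein-coding start, other gene end, within a gene, between genes. SMG and NG were compared with limma 3.58.1 (R 4.3.3, trended prior variance, Benjamini-Hochberg over 23511 regions). The fit was tested on simulated data with 200 shifted regions. Python 3.11.15 with pandas 2.3.3 and SciPy 1.17.1 did the rest. Another 24 regions outside chromosomes 1 to 22, X and Y reached the limit, 4 of them on the mitochondrial chromosome, and were left out by the rule. A few genes that the naming rule or a list would name are not reported here.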

Additional observations from a re-analysis of the deposited data

How the results depend on the processing

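Ranking by fold enrichment kept 129 of the 300 regions, and of the 300 then chosen 134 lay at protein-coding starts and 72 within genes. Ranking by recovered pileup kept 223, and 63 of the regions then chosen lay by gene-free stretches. Ranking by −log10 p-value kept 300, by the lowest of the 6 percentiles 266, with peaks linked only by an overlap of 50% of the shorter peak 300, and with peaks of −log10 q-value of 5 or more 300. Leaving out 1 library at a time kept 276 to 289. The share at protein-coding starts was 53.3% with 150 regions kept and 65.7% with 600, 58.3% and 61.3% with windows of 0.5 and 3 kb, and 59.3 to 62.0% without 1 library.

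The number of regions called by limma stayed at 0 with the quantile-normalized log2 fold, the raw percentile, no variance trend, a filter on percentiles above 50, which tests fewer regions, and the log2 height, an alternative chosen after seeing the data. Without 1 library at a time it was 0 to 2, the 2 arising without SMG 3. The replicate block also called 0, with a smallest adjusted p of 0.227 in limma. Same-numbered libraries did not deviate together (correlations 0.0024, −0.0122 and −0.0221), so no pairing by number was seen. The labels do not say whether same-numbered libraries were prepared together, and these correlations cannot exclude it. At an unadjusted p under 0.05 these fits gave 3 of the 300 regions (1%, against 5.5% of all regions) without the trend to 29 (9.67%, against 5.9%) with height, and 22 (7.33%, against 5.94%) under the block.

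Counts of regions without overlap were also recomputed on scales chosen after seeing the data. Higher in SMG were 3 with log2 fold enrichment (1%, against 4.11% of all regions), 2 with log2 height (0.667%, against 3.72%) and 23 to 35 without 1 library. Lower in SMG were 36 (12%, against 5.82%), 51 (17%, against 7.16%) and 32 to 40. With 1 library fewer, 10.0 to 11.4% of all regions do not overlap in each direction, so larger counts follow from fewer samples. Of regions ranked highest in NG, within those held by all 6 libraries, 60.3% recurred in SMG when ranked by fold. The share was 74.7% with 150 and 76.5% with 600 kept, and 71.3 to 77.7% without 1 library. No direction reversed among the 10 named regions without overlap. They were chosen for that separation in the normal score, so leaving out 1 library could not reverse them. The fits without the trend, with the block or with the filter keep the same difference and could not either. The cause of the changes in counts and shares was not tested. Lists without counts give no depth beyond the recovered pileup, and a single pileup of 135 fragments carries counting error that the intervals here leave out.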
